A study of Mus musculus with 8 samples.

Results

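The genes described here encode the machinery of intraflagellar transport (IFT) and the BBSome: 37 of the 55487 genes in the deposited tables. They were chosen by symbol, with the submitters' Ensembl identifiers matched to a GENCODE annotation of GRCm38, and every one of the 37 was found and passed the filter on low values. They comprise 6 subunits of the IFT-A complex, 12 subunits of the IFT-B complex, 8 motor genes and 11 genes of the BBSome, its assembly factors and its membrane recruiter. RNA came from the cerebral cortex of mouse embryos at E18.5. The 4 libraries labelled Upf2cKO carried the genotype Upf2 fl/fl;Emx1-Cre, controls 1, 3 and 4 were Upf2 fl/fl, and control 2 was Upf2 fl/+. No control carried the recombinase, so the loss of Upf2 and the presence of Cre cannot be told apart. Upf2 encodes an adaptor protein that nonsense-mediated mRNA decay (NMD) depends on. Emx1-Cre is active in dorsal forebrain progenitors, so interneurons, microglia and vessel cells of the same tissue keep an intact Upf2. Strain, sex and litter are not given in the labels, and p-values therefore measure the spread between these samples, which may share a litter.

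A primary cilium is a single antenna that most cells carry, including the radial glia that line the ventricle of the developing cortex and the neurons they produce. It has no ribosomes, so its parts are carried in by trains of IFT proteins. IFT-B trains are pulled towards the tip by kinesin-2, and IFT-A, with the motor dynein-2, serves the return to the base. The BBSome is a coat-like adaptor that rides on these trains and moves membrane proteins, above all receptors, out of the cilium. It is put together with the help of chaperonin-like proteins and is recruited to membranes by the GTPase Arl6. Mutations in IFT and dynein-2 genes cause skeletal ciliopathies in humans, and mutations in BBSome genes cause Bardet-Biedl syndrome. The title of the series names ciliary gene networks, and the comparison asks how far the levels of these genes differed between mutant and control cortex.

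IFT genes are known targets of RFX transcription factors, which bind a motif called the X-box. Promoters were available for 33 of the 37 members in RefSeq's tables (GRCm38.p6), each running from 250 bases before to 50 bases after an annotated start. The letters searched on both strands were GTNNCC, any 2 bases and then GGNAAC for an X-box and GTTGCC for its half-site, which overlaps the first motif where both occur. Those 33 genes have 34 promoters in the table. An X-box match was found in 5 of the 34 (14.7%), against 425 of all 32851 promoters (1.29%), and a half-site in 13 of 34 (38.2%), against 4111 of 32851 (12.5%). The matches are shown because these genes are grouped below by how they moved. By that grouping an X-box match was held by 3 of 20 promoters of genes that rose, 0 of 3 of genes that fell and 2 of 11 of genes that did not pass the test. A half-site was held by 7 of 20 (35.0%), 0 of 3 and 6 of 11 (54.5%) in the same order. Ift80, Ift122, Ift81 and Dync2li1 had no entry. A match is a description of letters, not of binding. The 6 matches are given 5′ to 3′ on the strand of the gene, with the match in capitals.
Bbs7, chr3:36613489-36613518 (minus strand): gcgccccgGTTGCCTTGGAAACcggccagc
Bbs4, chr9:59353464-59353493 (minus strand): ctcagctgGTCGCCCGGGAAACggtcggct
Ift22, chr5:136908079-136908108 (plus strand): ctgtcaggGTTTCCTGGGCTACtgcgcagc
Ift22, chr5:136908109-136908138 (plus strand): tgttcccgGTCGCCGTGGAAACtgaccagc
Ift57, chr16:49699199-49699228 (plus strand): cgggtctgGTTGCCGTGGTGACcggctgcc
Bbs1, chr19:4906605-4906634 (minus strand): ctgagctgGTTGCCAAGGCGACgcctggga
The matches of Bbs7, Ift57 and Bbs1 also hold the half-site. The promoter of Ift172, shown because its gene had the largest rise of the 37, held no X-box match and a single half-site, in capitals, whose first base is the annotated start (chr5:31291065-31291364, minus strand).
Ift172: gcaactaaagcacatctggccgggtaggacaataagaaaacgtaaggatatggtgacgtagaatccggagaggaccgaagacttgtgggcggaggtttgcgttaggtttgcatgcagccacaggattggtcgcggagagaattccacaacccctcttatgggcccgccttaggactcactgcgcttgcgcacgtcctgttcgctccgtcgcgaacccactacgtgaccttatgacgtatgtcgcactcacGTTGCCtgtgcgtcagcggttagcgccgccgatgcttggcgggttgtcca

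The libraries were deep, with 96.6 to 156.0 M reads assigned to genes, as estimated from the steps between low values. The lowest member, Kif17, rested on 198 to 358 estimated reads per library. Levels are given as CPM, the reads of a gene scaled to one total in every library. Upf2 itself stood at 60.01, 58.1, 68.5 and 60.7 CPM in the controls, in the order of their numbers, and at 135, 139, 142 and 154 CPM in the Upf2cKO libraries, and the same order is kept throughout. It was thus higher in the libraries labelled Upf2cKO. This value sums the whole gene, including exons outside any deletion. It is therefore no check of the deletion or of the labels, and each direction below is that of the libraries as labelled. The defining markers of the cortical excitatory lineage were present, with a summed level of 2701 to 2952 CPM over 7 genes in controls and 2030 to 2480 CPM in Upf2cKO. Of all 16573 genes tested, 63.0% passed the threshold of an adjusted p under 0.05 (limma on log2(CPM + 0.1), Benjamini-Hochberg adjustment over all genes tested), so a difference between the groups was the usual state of a gene here. In bulk tissue, fewer cells of a type and less RNA per cell cannot be told apart.

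Most of the transport genes listed here rose. They were chosen with earlier results of these data known. Of 26 other genes of the same system, 26.9% were higher and 34.6% lower, as given below. Of the 37 members, 23 were higher in Upf2cKO (62.2%, where 36.7% of all genes tested were higher), 3 were lower (8.11%, where 26.3% of all genes were lower) and 11 did not pass. The median log2 change was 0.29, against 0.04 over all genes tested. At least 1.5-fold changes were found in 11 members, all of them rises, against 18.8% of all genes tested that rose and 4.34% that fell by that much. In 25 of the 37 members no value of one group lay within the range of the other , against 56.6% of all genes tested. TPM divides by gene length and then scales each library to one total again, and only the scaling can move a gene's ratio between the groups. With TPM, 26 members were higher and 1 was lower, against 6712 and 3368 of all 16573 genes tested. With median-of-ratios rescaling, 22 members rose and 5 fell, against 5487 and 5257 of all genes tested. Each complex held subunits that rose beside subunits that did not.

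**Figure D1:**
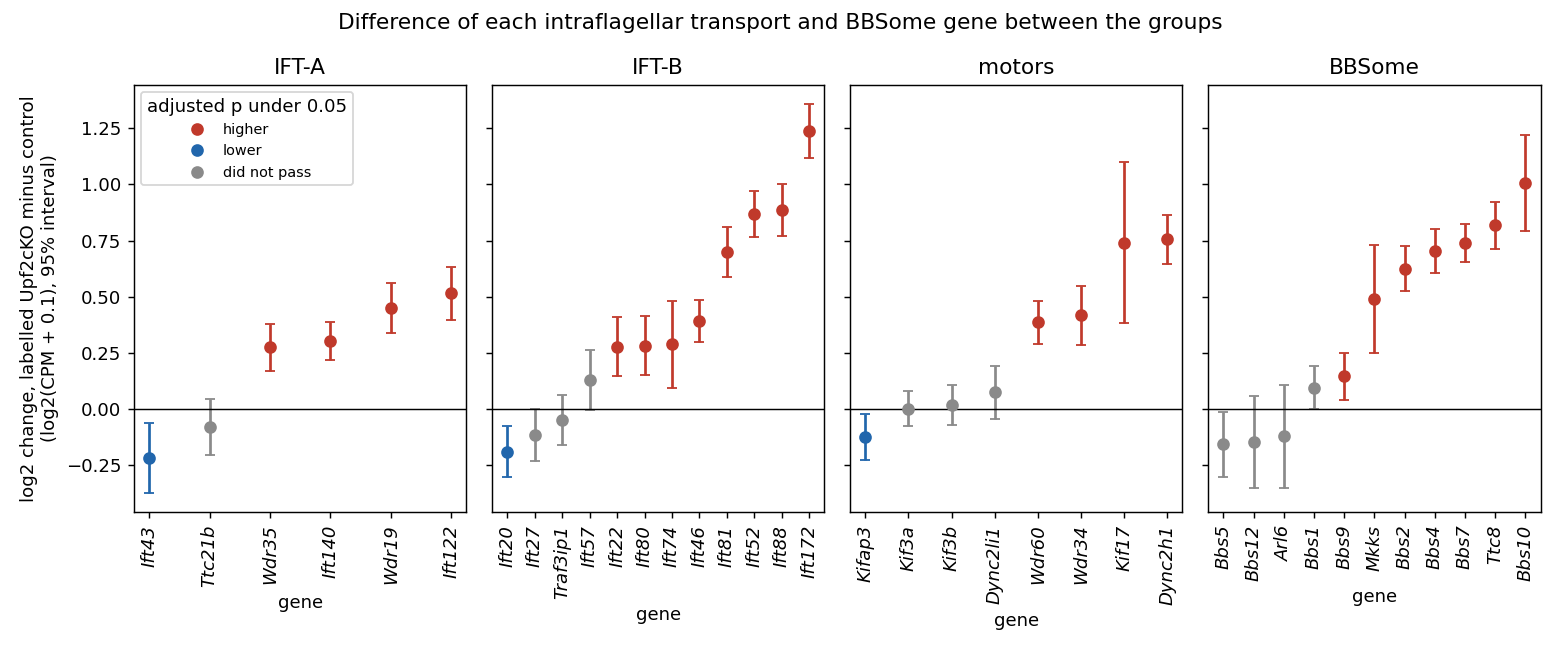
Log2 change of each of the 37 genes between the libraries labelled Upf2cKO and the controls (y axis, log2(CPM + 0.1) scale), with genes on the x axis grouped by complex; points are limma estimates, bars 95% intervals, and colours the call at an adjusted p of 0.05. Changes run from -0.22 for Ift43 to 1.24 for Ift172, and every complex holds genes whose interval lies above 0 and genes near 0.

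The IFT-A complex rose in 4 of its 6 subunits by modest amounts, between 1.21-fold and 1.43-fold. Ift122, Ift140 and Wdr19 encode the core of the complex, and Wdr35, Ift43 and Ttc21b its outer subunits. All 3 core genes rose, and of the outer genes Wdr35 rose, Ift43 fell and Ttc21b did not pass. On TPM, IFT-A had 4 genes higher and 0 lower.

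Ift122 (chromosome 6, 115853470 to 115926699) had 41.5, 42.9, 39.6 and 45.2 CPM in controls and 62.7, 61.3, 62.1 and 56.01 CPM in Upf2cKO. Every Upf2cKO library lay above every control, and Upf2cKO 4 was the lowest of its group. The rise was 1.43-fold (limma, adjusted p = 1.09e-05, with an SE of 0.053 for the log2 change). Wdr19, a core subunit with WD repeats, had 33.2, 29.01, 30.1 and 29.8 CPM in controls and 40.1, 42.5, 41.9 and 42.2 CPM in Upf2cKO. The groups did not overlap, and the rise was 1.36-fold (adjusted p = 2.06e-05).

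Ift140 (chromosome 17, 25016085 to 25099495) had 62.5, 62.4, 61.1 and 62.0 CPM in controls and 75.9, 79.2, 78.5 and 73.1 CPM in Upf2cKO. The controls differed little from each other, and all 4 Upf2cKO libraries were above them (1.24-fold, adjusted p = 4.50e-05). Wdr35, an outer subunit, had 48.9, 44.7, 45.3 and 46.4 CPM in controls and 57.8, 53.5, 54.0 and 59.0 CPM in Upf2cKO. It was 1.21-fold higher with no overlap (adjusted p = 0.000500).

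Ift43, the smallest of the IFT-A subunits and a partner of Wdr35, went the other way. It had 11.4, 12.02, 11.95 and 12.3 CPM in controls and 9.96, 9.35, 11.4 and 10.4 CPM in Upf2cKO, and Upf2cKO 3, at 11.35 CPM, was just under the lowest control, at 11.40 CPM. The fall was 1.16-fold (adjusted p = 0.0189). It no longer passed when control 4 (adjusted p = 0.0521), Upf2cKO 2 (0.0529) or both control 4 and Upf2cKO 4 (0.0735) were left out, nor on TPM (0.0589). Ttc21b, the outer subunit needed for retrograde transport, had 31.6, 29.4, 32.1 and 31.4 CPM in controls and 27.8, 28.1, 32.1 and 29.9 CPM in Upf2cKO. The groups overlapped, with a log2 change of -0.08 (95% interval -0.204 to 0.045, adjusted p = 0.239).

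The IFT-B complex held the largest rise of all members and also one of the falls. Of its 12 subunits 8 rose, 1 fell and 3 did not pass, with a median log2 change of 0.285. In the core, which is built around Ift52, Ift88, Ift46, Ift74 and Ift81, 6 of 7 genes rose. Among the peripheral subunits, which join the core and contact kinesin-2, 2 of 5 rose and 1 fell. Median-of-ratios rescaling gave 8 that rose and 2 that fell in the complex.

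Ift172 (chromosome 5, 31253277 to 31291116, minus strand) encodes the largest peripheral subunit, which in Chlamydomonas takes part in the turnaround of trains at the ciliary tip. It had 51.5, 53.3, 54.5 and 49.1 CPM in controls and 125, 128, 127 and 112 CPM in Upf2cKO. Upf2cKO 4 was the lowest of its group and still above every control. The rise was 2.36-fold (adjusted p = 1.55e-08, with an SE of 0.053 for the log2 change).

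Ift52 and Ift88, neighbours in the core of IFT-B, rose by nearly the same factor. Ift52 (chromosome 2, 163017354 to 163046141) had 28.0, 26.7, 26.9 and 25.4 CPM in controls and 46.7, 48.8, 50.6 and 49.5 CPM in Upf2cKO (1.82-fold, adjusted p = 6.42e-08). Ift88, the gene disrupted in the Tg737 mouse model of polycystic kidney disease, had 23.3, 21.96, 22.9 and 21.0 CPM in controls and 38.5, 41.6, 43.0 and 42.0 CPM in Upf2cKO (1.85-fold, adjusted p = 1.58e-07). Neither pair of groups overlapped. The ratio of Ift52 to Ift88 on TPM was 1.99, 2.01, 1.94 and 2.01 in controls and 2.01, 1.94, 1.94 and 1.95 in Upf2cKO, and the ranges of the groups overlapped. A short stretch of Ift88 overlaps the opposite-strand transcript Ift88os, where reads of the pair may have been mixed.

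Ift81 and Ift74, which form the coiled-coil pair that binds tubulin, rose by different amounts. Ift81 had 45.6, 41.7, 45.4 and 43.9 CPM in controls and 67.4, 70.3, 72.9 and 76.5 CPM in Upf2cKO (1.62-fold, adjusted p = 5.93e-07). Ift74 had 20.7, 17.3, 19.1 and 18.4 CPM in controls and 21.3, 20.9, 23.4 and 27.0 CPM in Upf2cKO (1.22-fold, adjusted p = 0.0137). The lowest Upf2cKO library of Ift74 was barely above the highest control, and without control 4 and Upf2cKO 4 the adjusted p was 0.0665. The TPM ratio of Ift81 to Ift74 was 1.00 to 1.09 in controls and 1.29 to 1.53 in Upf2cKO, with no overlap.

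Ift46, a core subunit that in Chlamydomonas carries outer dynein arms, had 69.1, 70.7, 68.4 and 73.2 CPM in controls and 88.9, 97.1, 93.8 and 89.9 CPM in Upf2cKO. It was 1.31-fold higher with no overlap (adjusted p = 1.31e-05). The small GTPase gene Ift22 rose from 30.2 ± 1.60 to 36.6 ± 2.38 CPM (SD, n = 4 in each group), a 1.21-fold rise (limma adjusted p = 0.00179). Ift80, a peripheral subunit mutated in Jeune syndrome, rose from 23.4 ± 0.853 to 28.5 ± 2.08 CPM (1.22-fold, limma adjusted p = 0.00184).

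Ift20, the subunit that also sits at the Golgi and takes part in sending membrane proteins to the cilium, fell. It had 27.6, 27.1, 26.6 and 30.0 CPM in controls and 25.3, 23.4, 24.3 and 24.5 CPM in Upf2cKO. All 4 Upf2cKO values were below every control (1.14-fold lower, adjusted p = 0.00804), and the call held under all 16 alternatives. Traf3ip1, the IFT-B subunit that binds Ift20, had 32.3, 32.1, 33.8 and 31.3 CPM in controls and 29.4, 33.2, 31.8 and 30.8 CPM in Upf2cKO. Its groups overlapped (log2 change -0.05, 95% interval -0.16 to 0.06, adjusted p = 0.412), and the sign turned on TPM, to 0.01. The TPM ratio of Ift20 to Traf3ip1 overlapped between the groups, at 1.92 to 2.33 and 1.72 to 2.09.

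Ift57 and Ift27 did not pass. Ift57, a peripheral subunit, had 19.7 ± 1.56 CPM in controls and 21.6 ± 0.386 CPM in Upf2cKO (log2 change 0.13, 95% interval -0.005 to 0.265). It passed as higher without control 4 (adjusted p = 0.0340) and on TPM (0.0111). Ift27, the GTPase that links IFT-B to BBSome export, had 28.6 ± 0.636 and 26.4 ± 1.67 CPM (log2 change -0.11, 95% interval -0.23 to 0.003), and passed as lower without Upf2cKO 3 (adjusted p = 0.0233) and after median-of-ratios rescaling (0.0199). Its direct partner Hspb11 (IFT25), which is not among the 37, rose from 9.27 ± 0.206 to 10.5 ± 0.867 CPM (1.13-fold, limma adjusted p = 0.0458), and the TPM ratio of Hspb11 to Ift27 was 0.432 to 0.472 in controls and 0.533 to 0.599 in Upf2cKO.

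**Figure D2:**
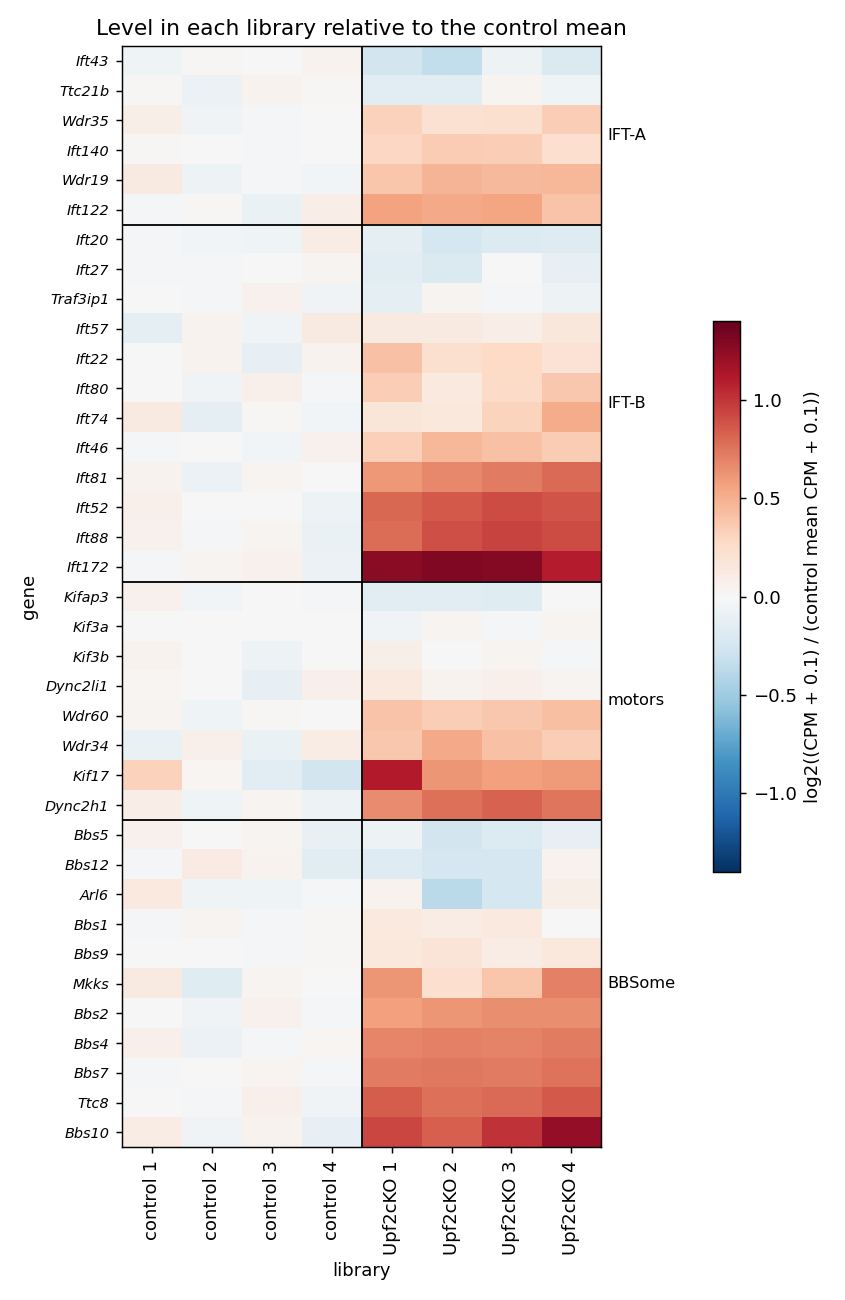
Level of each member in each of the 8 libraries as log2((CPM + 0.1) / (control mean CPM + 0.1)), with genes in rows grouped by complex and libraries in columns; red is above and blue below the control mean. The rows of Ift172, Ift52, Ift88 and Bbs10 are red in all 4 Upf2cKO libraries, and those of Kif3a and Kif3b stay near white.

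Among the 8 motor members, most dynein-2 genes rose, and no gene of the heterotrimeric kinesin-2 passed as higher. Of 8 motor genes 4 rose, 1 fell and 3 did not pass, with 5 higher and 0 lower on TPM. Of the 4 dynein-2 genes among the members 3 rose. Of 5 other motor genes tested that are not members, 0 were higher and 3 were lower. Of the kinesin-2 genes only Kif17, a separate homodimeric motor, passed as higher.

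Dync2h1 (chromosome 9, 6928503 to 7184446, minus strand), the heavy chain that drives retrograde transport, had 55.8, 50.4, 53.7 and 50.02 CPM in controls and 83.2, 89.7, 93.0 and 88.6 CPM in Upf2cKO. All Upf2cKO libraries were above all controls (1.69-fold, adjusted p = 3.53e-07, log2 SE 0.050). Its light intermediate chain Dync2li1 had 22.6 ± 1.23 and 23.8 ± 0.769 CPM (log2 change 0.08, 95% interval -0.04 to 0.19) and did not pass, except on TPM (limma adjusted p = 0.0233). The TPM ratio of Dync2h1 to Dync2li1 was 0.241 to 0.295 in controls and 0.383 to 0.447 in Upf2cKO, without overlap.

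The intermediate chains Wdr34 and Wdr60, which hold the dynein-2 heavy chains together, rose side by side. Wdr60 had 23.7, 22.3, 23.3 and 23.2 CPM in controls and 30.6, 29.5, 30.0 and 31.0 CPM in Upf2cKO (1.31-fold, adjusted p = 1.97e-05). Wdr34 had 37.2, 41.7, 37.3 and 42.5 CPM in controls and 51.4, 57.2, 52.7 and 50.6 CPM in Upf2cKO (1.34-fold, adjusted p = 0.000122). In both genes the groups lay apart, and the TPM ratio of Wdr34 to Wdr60 overlapped, at 5.40 to 6.44 in controls and 5.60 to 6.68 in Upf2cKO.

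Kif3a, Kif3b and the adaptor Kifap3 make up heterotrimeric kinesin-2, which also carries cargo along axons and is abundant in neurons. Kif3a had 229, 230, 229 and 230 CPM in controls and 223, 236, 225 and 236 CPM in Upf2cKO. The control values fell inside the Upf2cKO range (log2 change 0.002, 95% interval -0.08 to 0.08, adjusted p = 0.958). Kif3b had 162 ± 5.66 and 164 ± 5.68 CPM (log2 change 0.02, 95% interval -0.07 to 0.11), and both genes changed sign under some alternatives without passing. Kifap3 had 381, 354, 362 and 359 CPM in controls and 326, 325, 324 and 362 CPM in Upf2cKO. It passed as lower (1.09-fold, adjusted p = 0.0363), but Upf2cKO 4 lay within the controls. It no longer passed when control 1 (limma adjusted p = 0.0939), control 3 (0.0659), control 4 (0.0586), Upf2cKO 1 (0.0685), Upf2cKO 2 (0.0869) or Upf2cKO 3 (0.101) was left out. Nor did it pass on TPM (0.303), with no filter on low values (0.0736) or without limma's intensity trend (0.0668).

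Kif17, which in neurons also moves NMDA receptor subunits along dendrites, was the least abundant member. It had 2.10, 1.70, 1.48 and 1.38 CPM in controls and 3.71, 2.61, 2.53 and 2.56 CPM in Upf2cKO. Upf2cKO 1 was apart from the rest of its group, and the lowest Upf2cKO library was above the highest control (1.67-fold, adjusted p = 0.00220, log2 SE 0.161). Without Upf2cKO 1 the log2 change was 0.61 (adjusted p = 0.00291). With 1 CPM as the pseudocount it was 0.53, which is under 1.5-fold. Kif17 shares exon sequence with its neighbour Sh2d5 on the same strand, so its value is uncertain to that extent.

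The BBSome genes divided into a set that rose at least 1.5-fold and a set that moved less or did not pass. Of 11 genes 7 rose, none fell and 4 did not pass, with a median log2 change of 0.49. Of the 7 coat subunits among the members, Bbs2, Bbs4, Bbs7 and Ttc8 rose at least 1.5-fold, Bbs9 rose 1.11-fold, and Bbs1 and Bbs5 did not pass. Another subunit, Bbip1, is not a member and fell, as given below. With median-of-ratios rescaling the counts over all 11 genes became 6 that rose and 1, Bbs5, that fell.

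Bbs7 (chromosome 3, 36573142 to 36613477, minus strand), a subunit that pairs with Bbs2, had 25.0, 25.3, 25.9 and 24.7 CPM in controls and 41.9, 42.1, 41.9 and 42.8 CPM in Upf2cKO. The libraries within each group were close together, and the rise was 1.67-fold (adjusted p = 6.06e-08, log2 SE 0.039). Bbs2 had 21.1, 20.3, 21.97 and 20.8 CPM in controls and 31.3, 32.3, 33.0 and 33.2 CPM in Upf2cKO (1.54-fold, adjusted p = 6.99e-07). The TPM ratio of Bbs7 to Bbs2 went from 0.724 to 0.765 in controls to 0.779 to 0.822 in Upf2cKO.

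Ttc8, which encodes the subunit BBS8, had 18.3, 18.3, 19.4 and 17.8 CPM in controls and 33.3, 31.5, 31.9 and 33.4 CPM in Upf2cKO. It had the largest rise of the coat subunits, 1.76-fold, with no overlap (adjusted p = 1.27e-07). Bbs4, which like Ttc8 is built of TPR repeats, had 33.7, 30.2, 31.4 and 32.7 CPM in controls and 51.5, 52.2, 51.8 and 53.2 CPM in Upf2cKO (1.63-fold, adjusted p = 2.32e-07). The TPM ratio of Bbs4 to Ttc8 overlapped between the groups, at 1.02 to 1.15 and 0.969 to 1.04. Exons of Bbs4 overlap Adpgk on the other strand, where reads of the pair may likewise have been mixed.

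Bbs9, a scaffold of the coat, rose from 15.02 ± 0.199 to 16.6 ± 0.361 CPM (1.11-fold, limma adjusted p = 0.0200), and the call was lost without Upf2cKO 2 (adjusted p = 0.0502), without control 4 and Upf2cKO 4 (0.0573) and after median-of-ratios rescaling (0.125). Bbs1, the subunit that binds Arl6, had 46.2 ± 1.08 and 49.4 ± 2.14 CPM (log2 change 0.09, 95% interval -0.001 to 0.191). Bbs1 passed as higher without Upf2cKO 4 (limma adjusted p = 0.0175), without control 4 and Upf2cKO 4 (0.0317) and on TPM (0.0140). Bbs5, a subunit that binds phosphoinositides, had 12.4 ± 0.638 and 11.1 ± 0.617 CPM (log2 change -0.16, 95% interval -0.30 to -0.01, adjusted p = 0.0560). It passed as lower without control 4 (limma adjusted p = 0.0365), without Upf2cKO 1 (0.0347) and without control 4 and Upf2cKO 4 (0.0415). The same held after median-of-ratios rescaling (0.0121) and without limma's intensity trend (0.0447).

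Bbs10, Bbs12 and Mkks encode chaperonin-like proteins that assemble the BBSome. Bbs10 (chromosome 10, 111298679 to 111301727) had 4.93, 4.42, 4.72 and 4.21 CPM in controls and 8.82, 8.22, 9.31 and 10.9 CPM in Upf2cKO. The rise, 2.01-fold, was the second largest of the 37 and the groups did not overlap (adjusted p = 6.06e-06, log2 SE 0.096). Mkks (BBS6) rose from 8.25 ± 0.700 to 11.7 ± 1.74 CPM (1.403-fold, limma adjusted p = 0.00250) with no overlap, but its exons overlap other annotated genes on both strands. Bbs12 had 5.73 ± 0.448 and 5.17 ± 0.507 CPM and did not pass (log2 change -0.15, 95% interval -0.35 to 0.06), except without control 4 and Upf2cKO 4 (adjusted p = 0.0348, lower).

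Arl6, the GTPase that recruits the BBSome to membranes, had 19.4, 17.0, 16.9 and 17.5 CPM in controls and 18.4, 13.6, 14.9 and 18.8 CPM in Upf2cKO. Upf2cKO 2 and 3 were below every control and Upf2cKO 1 and 4 were not (log2 change -0.12, 95% interval -0.35 to 0.11, adjusted p = 0.326). Exons of Arl6, like those of Ift57 and Bbs12, overlap other annotated genes, so their values are uncertain to that extent.

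**Figure D3:**
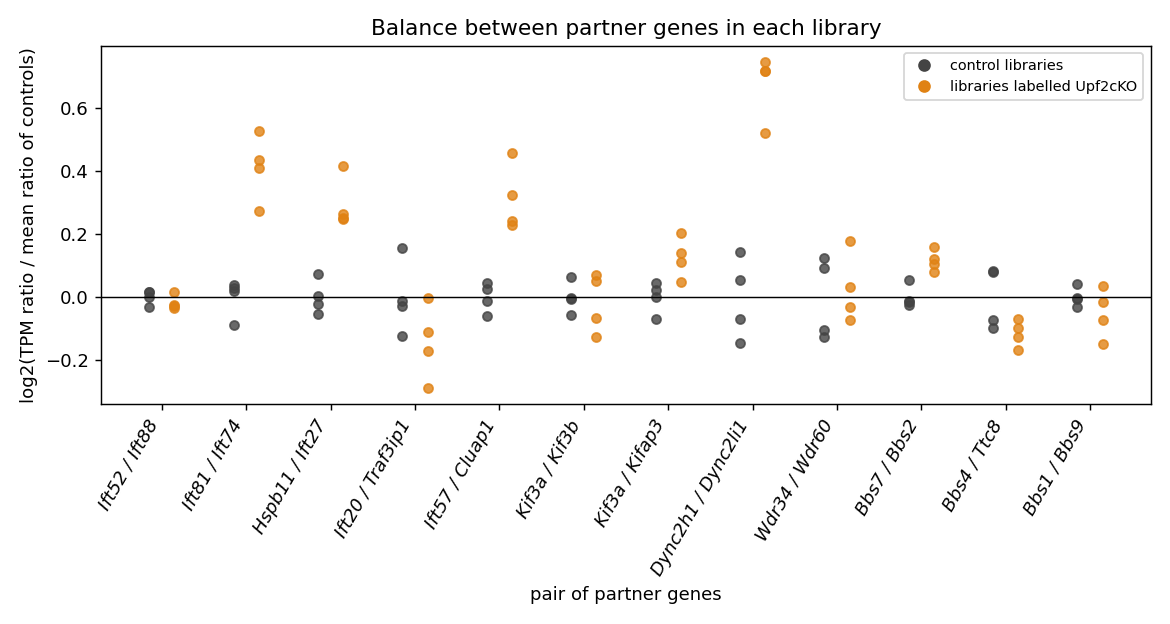
Ratio of the TPM of 2 partner genes in each library, as log2 of the ratio over the mean ratio of the controls (y axis), for 12 pairs (x axis); dots are libraries, dark for controls and orange for those labelled Upf2cKO. Ift52 / Ift88 stays close to 0, whereas Dync2h1 / Dync2li1 and Ift81 / Ift74 lie above every control in all 4 Upf2cKO libraries.

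The pairs were taken from known contacts between the proteins, with the values of the genes already known, so their ratios are given without a test. A ratio within a library does not depend on the scaling of that library. The groups' ratios lay apart for Ift81 to Ift74, Hspb11 to Ift27, Ift57 to Cluap1, Kif3a to Kifap3, Dync2h1 to Dync2li1 and Bbs7 to Bbs2, and overlapped for the other pairs. Ratios of other genes were not computed, so nothing particular to these pairs is read from this.

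Per unit of gene length, the members differed widely in level. The gene lengths matched the merged exons of all annotated transcripts for 97.7 to 97.8% of the more abundant genes. Exons of minor transcripts thus count as length, which limits comparisons between genes. In controls the motors spanned 1.44 TPM for Kif17 to 360 TPM for Kifap3, with Kif3a at 254 and Kif3b at 114 TPM, and the kinesin-2 trimer was thus above every other member. IFT-A subunits lay between 10.7 TPM (Wdr19) and 29.5 TPM (Ift140). IFT-B subunits lay between 7.45 TPM (Ift80) and 72.2 TPM (Ift20), and BBSome genes between 5.95 TPM (Bbs10) and 33.5 TPM (Arl6). In Upf2cKO, Ift172 went from 31.2 to 76.9 TPM and became the most abundant IFT-B subunit, ahead of Ift52 at 72.1 TPM, which had been at 37.8 TPM. Across the 37 genes, the log2 change ran weakly against the control TPM (Spearman correlation -0.36 over genes that share the same libraries, given as a description).

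**Figure D4:**
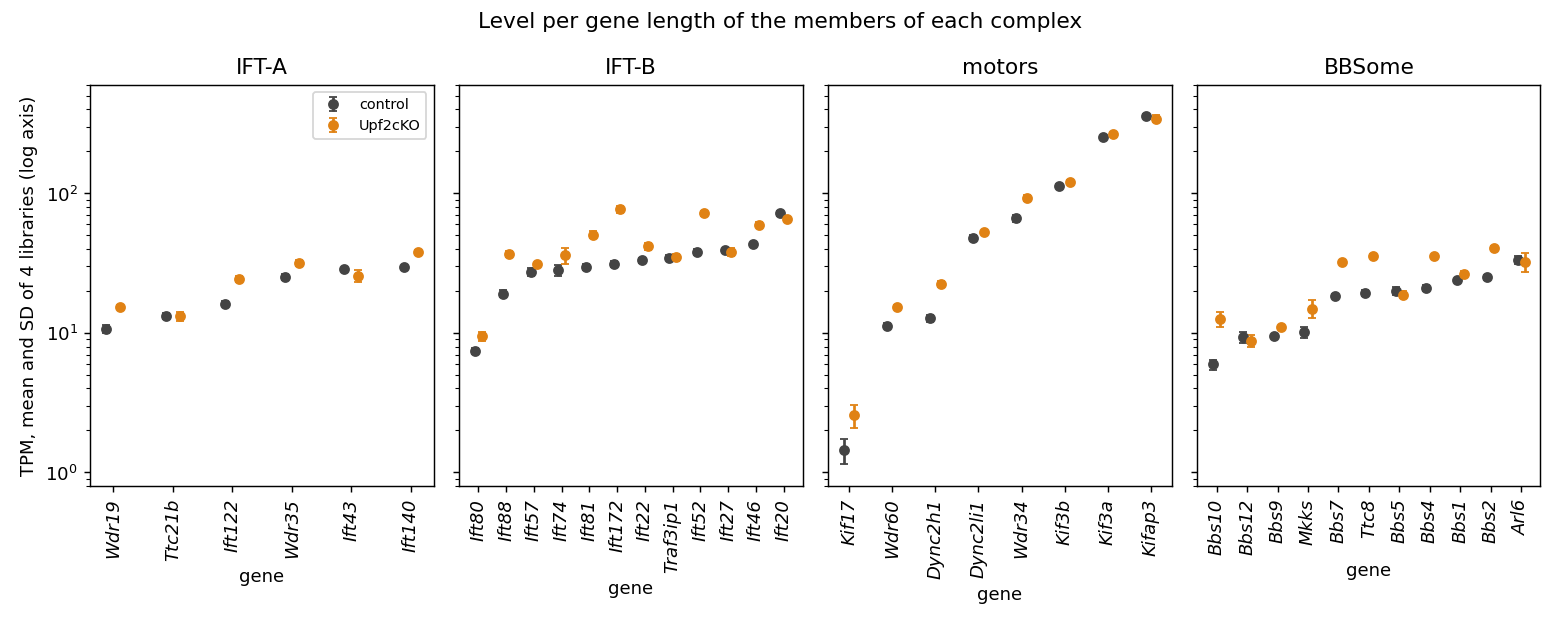
Level per gene length of each member, as the mean TPM of 4 libraries with its SD (y axis, log scale), for controls (dark) and libraries labelled Upf2cKO (orange), with genes on the x axis ordered by their control level within each complex. Kif3a, Kif3b and Kifap3 lie above 100 TPM in both groups, and Ift172 goes from 31.2 to 76.9 TPM.

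Transcripts annotated as NMD targets were present in 11 of the 37 genes. Of these 11, 8 rose and none fell (Ift122, Wdr35, Ift46, Ift81, Ift88, Dync2h1, Wdr60 and Bbs9 rose; Kif3a, Bbs1 and Bbs5 did not pass), with a median log2 change of 0.39. Of the 26 without such a transcript, 15 rose and 3 fell, with a median of 0.285. The same split over all protein-coding genes tested gave 47.9% higher and 21.3% lower among 3884 genes with an annotated NMD transcript, and 31.7% higher and 31.2% lower among 10146 without one. The 3 largest rises among the members, Ift172, Bbs10 and Ift88, include only Ift88 from the annotated set. Ift172 has 11 annotated transcripts, of which 7 are retained-intron models. The deposited values are for whole genes, so which transcripts rose was not measured.

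Of 27 other genes of the same transport system, 26 passed the filter and they moved in both directions. Of the 26, 7 were higher (26.9%, where 36.7% of all genes tested were higher) and 9 were lower (34.6%, where 26.3% were lower). The other 10 did not pass, and the median log2 change was 0.01. With TPM the split was 9 higher and 6 lower, against 6712 and 3368 of all 16573 genes tested. With median-of-ratios rescaling it was 5 higher and 11 lower, against 5487 and 5257 of all genes tested. Among the other IFT-B subunits, Hspb11 and Ttc26 rose and none of the 6 fell. Of the 5 other motor subunits tested, 0 rose and 3 fell, namely the kinesin-2 gene Kif3c, Dynlrb1 and Dynll1. Of 13 genes for adaptors, cargo and kinases, 4 rose and 5 fell, and of 2 BBSome partners 1 rose and 1 fell. The dynein light chain Dynlrb2 stayed below the filter and was not tested. The kinase Cdk20, which acts on the ciliary kinase Ick, had 21.6, 20.3, 19.7 and 21.7 CPM in controls and 36.2, 39.2, 36.2 and 35.3 CPM in Upf2cKO (1.76-fold, adjusted p = 3.14e-07). It was the largest change of this list and 5 of its transcripts are annotated as NMD targets. Other genes of the list with such transcripts rose less (Rabl2, Ttc26 and Lztfl1), did not pass (Cluap1 and Dynll2) or fell (Pde6d). Tulp3, the adaptor that loads receptors onto IFT-A, rose from 23.9 ± 0.471 to 29.2 ± 0.852 CPM (1.22-fold, limma adjusted p = 0.000182), and Lztfl1, a regulator of BBSome traffic, from 43.2 ± 3.15 to 56.6 ± 4.04 CPM (1.31-fold, limma adjusted p = 0.000373).

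The falls in that list included a subunit of the BBSome itself. Bbip1 (BBS18), a small subunit needed for BBSome assembly, had 87.7, 81.2, 85.1 and 80.2 CPM in controls and 62.0, 62.0, 68.0 and 70.0 CPM in Upf2cKO (1.28-fold lower, adjusted p = 0.000153). It fell while its partners Bbs2, Bbs4, Bbs7 and Ttc8 rose. Exons of Bbip1 overlap Shoc2 on the other strand, so its value is uncertain to that extent. The same holds for Cdk20, Lztfl1, Cluap1 and Kif3c, whose exons overlap other annotated genes. Arl3, the GTPase that releases lipid-modified cargo in the cilium, fell from 103 ± 3.74 to 84.4 ± 1.08 CPM (1.22-fold lower, limma adjusted p = 6.48e-05), and Dynll1, a light chain that dynein-2 shares with cytoplasmic dynein, from 271 ± 9.60 to 222 ± 8.90 CPM (1.22-fold lower, limma adjusted p = 0.000140).

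Markers of several cell types also differed between the groups, in both directions. Radial glia markers fell in 6 of 7 genes, with a summed level of 1291 to 1348 CPM in controls and 864 to 1020 CPM in Upf2cKO. Interneuron markers, from cells that Emx1-Cre does not reach, rose in 6 of 6 genes, from 339 to 382 CPM in controls to 515 to 613 CPM in Upf2cKO. Microglia markers rose in 4 of 6 genes, from 30.8 to 39.8 CPM to 73.6 to 107 CPM, and of meningeal markers 1 of 5 rose. Other types outside the Emx1 lineage went the other way. Endothelial markers fell in 4 of 5 genes, from 115 to 122 CPM in controls to 91.7 to 97.99 CPM in Upf2cKO, pericyte markers in 2 of 4 and erythroid markers in 4 of 4. Markers of the neighbouring striatum fell in 4 of 5 genes and those of the thalamus in 2 of the 3 tested. Markers of ependymal and multiciliated cells, which use the same IFT machinery, summed to 6.36 to 9.54 CPM in controls and 11.6 to 14.2 CPM in Upf2cKO over 8 genes. Most of that sum was Foxj1, at 5.69 to 8.17 CPM in controls and 10.5 to 11.3 CPM in Upf2cKO, which alone passed the filter and rose (limma adjusted p = 0.000317). The other 7 were at or under 1.07 CPM in every library: Mcidas, Deup1 and Pifo overlapped between the groups, and Ccno had 0.22 to 0.45 CPM in controls and 0.02 to 0.21 CPM in Upf2cKO. Tmem212 and Sntn were at 0 in 7 of 8 libraries and had 0.41 and 0.1 CPM in Upf2cKO 1, where Ccdc153 was also highest, at 1.07 CPM. Choroid plexus markers, also of a ciliated epithelium, summed to 2.72 to 128.5 CPM in controls and 3.11 to 278.7 CPM in Upf2cKO, with the highest values in control 4 and Upf2cKO 4 and none of the 8 genes at 0 throughout. Without those 2 libraries 22 members were higher, where 5156 of 15913 genes tested were higher. The part that shifts in cell types had in the changes of the transport genes was not tested.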

How the data were processed

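RNA-seq of 8 cortex samples was deposited as 2 tables of 55487 genes. The CPM values, scaled to the reads assigned to genes in each library, and the TPM values, which also divide by gene length, are as deposited by the authors. The build mm10 and these tools are listed in the submitters' processing notes as STAR 2.7.11a and fastp 0.23.4, with MultiQC 1.25, Picard 3.1.1 and DESeq2 also listed, in no stated order. For the read counter, strandedness and gene models, the sources used here give nothing. The gene lengths implied by TPM and CPM matched merged GENCODE M21 exons for 97.7 to 97.8% of the more abundant genes in each library. Of the identifiers, 55227 matched a GENCODE M21 symbol.

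Genes with at least 0.5 CPM in 4 of the 8 libraries were tested with limma 3.58.1 (R 4.3.3, intensity trend) on log2(CPM + 0.1), without a block, over both groups, with Benjamini-Hochberg adjustment over all 16573 and a threshold of 0.05. Folds are on that scale and understate changes of low genes. The test was checked on simulated data. Steps between low values gave the depth of each library, with 1 read worth 0.00641 to 0.01035 CPM. At 2 decimals these steps are too fine to give back every gene's reads, so no count test was run.

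Members and lists were chosen with earlier results of these data known. All 37 members are named. In each complex every library's value is given for up to 5 members with the smallest adjusted p, those that passed in the rarer direction and the 1 with the largest adjusted p. Of the other transport genes, up to 3 per direction are described. The values of Ift74, Cdk20 and Bbip1 by library and the partner Hspb11 were added after values were seen. The 16 alternatives were another pseudocount, 2 other filters, TPM, median-of-ratios rescaling, no trend, a replicate block, and leaving out libraries.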

Additional observations from a re-analysis of the deposited data

Results flagged for a closer look

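In 4 of the 74 groups of 4 libraries, 1 library lay far from the other 3, where chance gives 3.7 at 1 in 20. Ift172 was at 111.68 CPM in Upf2cKO 4 and at 125.4 to 128.16 CPM in the other Upf2cKO libraries. Kifap3 was at 361.91 CPM in Upf2cKO 4, within the controls, and at 323.6 to 326.49 CPM in the others. Bbs12 was at 5.92 CPM in Upf2cKO 4 and at 4.86 to 5.04 CPM in the others. Kif17 was at 3.71 CPM in Upf2cKO 1 and at 2.53 to 2.61 CPM in the others. Upf2cKO 4 also had the highest choroid plexus markers, summed to 278.7 CPM, and Upf2cKO 1 the highest ependymal and multiciliated markers, summed to 14.15 CPM where Upf2cKO 2, 3 and 4 had 11.61 to 11.7 CPM. Their part in these values was not tested.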

How the results depend on the processing

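Of the 37 genes, 24 kept their call under all 16 alternatives (21 higher, Ift20 lower, Ttc21b and Arl6 not passing). The number higher ranged from 22 to 26, and the number changed at least 1.5-fold from 10 to 12. The number lower, 3, became 1 with TPM and 5 with median-of-ratios rescaling, and ranged from 1 to 3 when single libraries were left out. Lower IFT-A genes went from 1 to 0 on TPM and without control 4 and Upf2cKO 4, and ranged from 0 to 1 with single libraries left out. Lower IFT-B genes, 1, numbered 2 with median-of-ratios rescaling, and ranged from 1 to 2 with single libraries left out. Lower motor genes went from 1 to 0 on TPM, with no filter and with no trend, and ranged from 0 to 1 with single libraries left out. Lower BBSome genes numbered 0, then 1 with median-of-ratios rescaling or no trend and to 2 without control 4 and Upf2cKO 4, and ranged from 0 to 1 with single libraries left out. The sign of genes that did not pass turned for Traf3ip1 on TPM (log2 change 0.013), for Kif3a after median-of-ratios rescaling (-0.053), without control 4 and Upf2cKO 4 (-0.009), without Upf2cKO 2 (-0.011) and without Upf2cKO 4 (-0.011; -0.011 to 0.018 over single libraries left out), and for Kif3b after median-of-ratios rescaling (-0.036), without control 3 (-0.003) and without Upf2cKO 1 (-0.001; -0.003 to 0.037 over single libraries left out). Why signs turned when libraries were left out was not tested. TPM moves the median log2 change of all genes tested to 0.10 and median-of-ratios rescaling to -0.01, from 0.04. Single members moved by similar amounts with these 2 settings. Ift122 went from 0.516 to 0.575 and 0.461, Kif3a from 0.002 to 0.063 and -0.053, and Ift20 from -0.189 to -0.128 and -0.244. The deviations of each library from its group mean, over the genes tested, were compared between the groups. For same-numbered libraries they correlated at 0.423, 0.052, 0.523 and 0.186, all positive, and for differently numbered ones at -0.451 to 0.328. The labels give no litter or pairing, so the main test used none, and whether same-numbered libraries share a litter or batch was not tested. The deviations of Upf2cKO 2 correlated best with those of control 4, and the other 3 with those of their own number. A replicate block left 23 genes higher and 3 lower and changed no member's call. Kif17, at 198 to 358 reads, is the gene most limited by depth.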
